A study of Mus musculus with 10 samples.

Results

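CpG-rich distal sites are accessible chromatin sites that lay more than 1 kb from every annotated transcript start and yet had the base composition of a CpG island. They were taken from the authors' list of all accessible sites on chromosomes 1 to 19 of mm10 by a rule on position and sequence: no overlap with 1 kb either side of any transcript start, a GC content of 0.60 or more, and an observed to expected CpG ratio of 0.60 or more over the whole site. This ratio divides the number of CpG dinucleotides by the number that the C and G content of the site would give by chance. The rule found 420 sites of 150083 on these chromosomes, and the whole list held 153924. They made up 0.338% (95% Wilson interval 0.307 to 0.372) of the 124339 distal sites, whereas 4677 of 25744 promoter sites (18.2%) passed the same sequence rule.

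The study used ATAC-seq, in which the transposase Tn5 cuts open chromatin, to ask how accessibility responds when the H3K4 methyltransferase cofactor ASH2L is degraded. All 10 libraries came from NG3, a single clone of immortalized mouse embryo fibroblasts (iMEF) that had lost an exon of endogenous Ash2l and lived on a lentiviral human ASH2L fused to FKBP12 F36V and HA tags. The 5 groups of 2 replicates were cells without dTAG, which according to the methods received ethanol as the vehicle, and cells treated with dTAG-13, a PROTAC, over 30 min, 4 h, 8 h or 24 h. The list analysed here pools the groups and gives only the position of each site, so it holds no depth, no replicate spread and no difference between treatments, and the libraries in which a site was open were not analysed here. No test was run, and every interval below covers sampling of sites alone, although neighbouring sites are not independent.

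CpG dinucleotides are rare in most of the mouse genome because methylated cytosine tends to mutate to thymine, which turns CpG into TpG and, on the other strand, CpA. CpG islands escape this decay where they are kept free of methylation, and most of them lie at promoters, where proteins with a CXXC domain bind unmethylated CpG and bring in KMT2 and Polycomb complexes. Islands away from annotated starts, often named orphan islands, are known from the bodies and surroundings of developmental genes and can act as enhancers or unannotated promoters.

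Stretches of 200 bases from 6 members show what such sites look like beside 2 sites of the comparison classes. They were read from the forward strand of GRCm38, every CpG is in capitals, and none of the windows includes untranslated exon sequence of GENCODE M21. Exons of RefSeq were not checked for this. The first is from the member at the median GC content, outside genes and 27721 bp from the start of Rph3al, at chr11:75966802-75967001. RefSeq, unlike GENCODE, has a transcript start inside this member.

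Rph3al side, 20 CpG: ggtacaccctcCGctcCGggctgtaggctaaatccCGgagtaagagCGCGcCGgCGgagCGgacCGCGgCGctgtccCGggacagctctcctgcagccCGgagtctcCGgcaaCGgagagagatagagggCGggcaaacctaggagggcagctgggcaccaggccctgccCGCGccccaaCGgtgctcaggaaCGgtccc

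The next 2 lie in coding exons and are among the 5 members with most CpG per 100 bp. They are part of exon 19 of Cacna1a, a calcium channel gene (chr8:84559188-84559387), and of exon 3 of Evx1, a homeobox gene (chr6:52316648-52316847).

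Cacna1a exon 19, 33 CpG: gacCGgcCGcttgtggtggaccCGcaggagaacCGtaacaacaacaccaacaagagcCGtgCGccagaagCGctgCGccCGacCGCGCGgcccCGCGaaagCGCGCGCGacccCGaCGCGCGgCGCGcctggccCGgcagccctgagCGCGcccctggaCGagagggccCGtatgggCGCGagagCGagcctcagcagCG

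Evx1 exon 3, 27 CpG: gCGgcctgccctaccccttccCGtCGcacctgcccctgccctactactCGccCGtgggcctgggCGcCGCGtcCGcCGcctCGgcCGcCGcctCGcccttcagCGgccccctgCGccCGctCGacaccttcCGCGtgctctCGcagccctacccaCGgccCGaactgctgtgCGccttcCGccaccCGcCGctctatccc

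The fourth is from the member farthest from any start, at chr1:14506657-14506856, on the side of Eya1, which encodes a transcriptional cofactor with phosphatase activity. The fifth is from the widest member, in an intron of Kdm6b, a histone H3K27 demethylase, at chr11:69410119-69410318.

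Eya1 side, 18 CpG: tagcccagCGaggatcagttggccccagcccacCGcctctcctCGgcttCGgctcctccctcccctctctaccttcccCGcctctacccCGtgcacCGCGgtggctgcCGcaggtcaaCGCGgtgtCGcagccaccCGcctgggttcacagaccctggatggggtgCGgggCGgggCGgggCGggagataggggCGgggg

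Kdm6b intron, 16 CpG: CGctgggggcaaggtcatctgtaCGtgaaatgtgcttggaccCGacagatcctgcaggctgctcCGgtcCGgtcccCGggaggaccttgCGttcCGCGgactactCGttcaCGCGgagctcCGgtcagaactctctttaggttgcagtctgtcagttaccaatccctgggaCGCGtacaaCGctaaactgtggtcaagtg

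The sixth is from the member with the highest CpG ratio, in an intron of the myosin chaperone gene Unc45b at chr11:82930968-82931167, and is made of short tandem repeats.

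Unc45b intron, 32 CpG: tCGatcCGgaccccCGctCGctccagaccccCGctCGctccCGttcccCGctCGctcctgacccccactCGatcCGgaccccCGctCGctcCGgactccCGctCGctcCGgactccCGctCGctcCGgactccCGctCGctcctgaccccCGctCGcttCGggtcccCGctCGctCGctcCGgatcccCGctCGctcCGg

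The comparison sites were those closest to their class medians in width, GC content, CpG ratio and TpG ratio. The other distal site, at chr13:16715591-16715790, held 1 CpG in its window, and the CpG-rich promoter site of Mob2, at chr7:142061068-142061267, held 17. The Mob2 window was moved off the centre of its site (chr7:142060220-142061714) to leave out untranslated exon sequence. All other windows were centred, so these counts do not compare the classes.

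Other distal site, 1 CpG: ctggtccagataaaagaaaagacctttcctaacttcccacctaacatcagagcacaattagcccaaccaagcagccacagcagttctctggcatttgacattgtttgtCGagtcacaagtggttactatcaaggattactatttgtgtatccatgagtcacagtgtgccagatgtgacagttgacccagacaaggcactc

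Mob2 promoter site, 17 CpG: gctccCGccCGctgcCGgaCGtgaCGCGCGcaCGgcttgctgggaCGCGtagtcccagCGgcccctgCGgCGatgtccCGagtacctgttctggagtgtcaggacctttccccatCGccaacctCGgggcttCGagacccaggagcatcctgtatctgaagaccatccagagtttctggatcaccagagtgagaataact

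GC content and CpG ratio were set by the rule and are given as a description. The members had a median GC content of 63.8% (range 60 to 77.6) and a median CpG ratio of 0.744 (range 0.601 to 1.33), with 7.68 CpG per 100 bp. The CpG-rich promoter sites, which passed the same thresholds, had medians of 63.6% and 0.775, while the 123919 other distal sites had 44.5% and 0.176. A member thus carried a median of 56.5 CpG where an ordinary distal site carried 5.

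**Figure D1:**
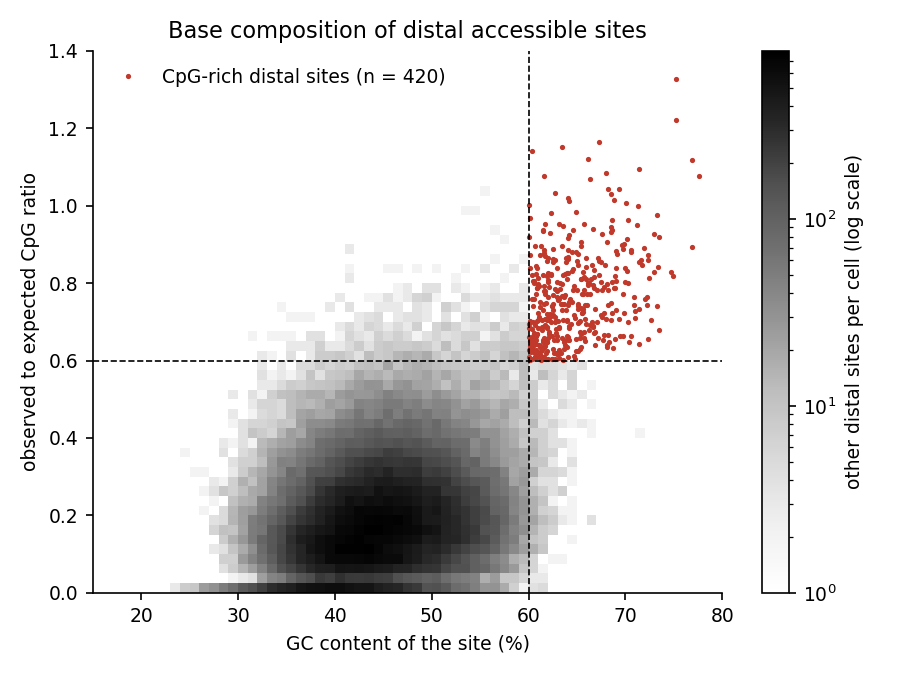
GC content (x axis, %) against observed to expected CpG ratio (y axis) of every distal site on chromosomes 1 to 19. Grey cells count the other distal sites on a log scale, red points are the 420 CpG-rich distal sites, and the dashed lines are the thresholds of 60% and 0.6; 3 other distal sites lie outside the plotted range.

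The thresholds cut through a continuous scatter of sites and not through a gap. Genes in this paragraph are those of the nearest coding start, which can be far away. Members named by Foxn3 (81525 bp away), Dmrt3 and Mxi1 were tied for the lowest GC content, at 0.6. The highest site left out by GC content, named by Zfp991, stood at 0.59916. For the CpG ratio, the lowest member, which lies in the imprinted gene Ndn, had 0.60083 and the highest site left out, named by Tbx20, had 0.59948. For the distance, the nearest member lay 1004 bp from a start, beside Ube2ql1, and the farthest CpG-rich site left out lay 989 bp away, beside Cadps.

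CpG was concentrated at the centre of the sites. Averaged over the members, it fell from 9.78 per 100 bp in the innermost 100 bp on either side of the centre to 3.75 at 500 to 600 bp and to 1.87 at 2900 to 3000 bp. The CpG-rich promoter sites were higher at the centre (11.4) and at 500 to 600 bp (5.76) but lower than the members at 2900 to 3000 bp (1.24). The other distal sites stayed between 0.909 and 1.06 at these distances. In the 500 bp flanking each side of a member, the median CpG ratio was 0.394 (95% interval 0.368 to 0.421), and in 339 of 420 members (80.7%) the flanks were under 0.60.

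**Figure D2:**
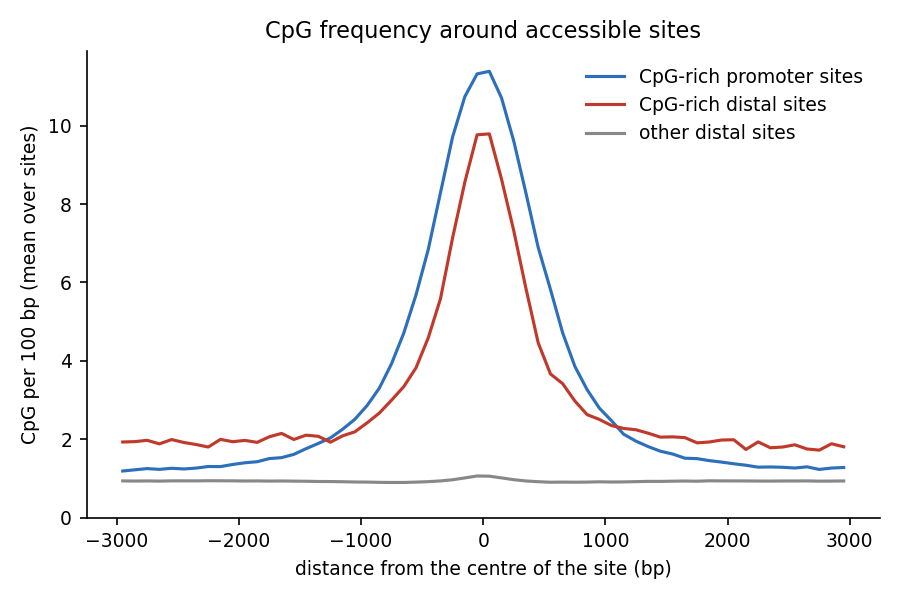
Mean number of CpG per 100 bp (y axis) in bins of 100 bp by distance from the centre of the site (x axis, bp), for 420 CpG-rich distal sites, 4677 CpG-rich promoter sites and 123919 other distal sites. The members peak at the centre below the CpG-rich promoter sites, fall to 3.75 at 500 to 600 bp, and lie above both other classes 3 kb away.

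The members were wider than ordinary distal sites and narrower than promoter sites of the same composition. Their median width was 753.5 bp (95% interval 677 to 825, range 178 to 3362), against 566 bp for other distal sites and 1483 bp for CpG-rich promoter sites. A width of 1000 bp or more was reached by 33.6% of the members (29.2 to 38.2), 16.5% of the other distal sites and 80.6% of the CpG-rich promoter sites. The widest member was the Kdm6b site of 3362 bp at chr11:69408538-69411899, which lay 1776 bp downstream of the nearest GENCODE start. A start of a RefSeq transcript lay within it. It was followed by a site of 3135 bp on the Ppara side of chromosome 15 (chr15:85669107-85672241), an intronic site of 2797 bp in Zfp503, a zinc finger repressor gene, and sites of 2609 bp and 2346 bp in the last exons of Ano8 and Nkpd1. The Zfp503 site lay 1082 bp from a GENCODE start and 163 bp from a RefSeq start.

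CpG islands computed from the genome overlapped 390 of 420 members (92.9%, 89.99 to 94.95), which is close to what the rule itself demands, and 0.596% of the other distal sites. On those 390 members, a median of 73.0% of the site was island, and a median of 97.7% of the island lay inside the site. The islands had a median length of 665 bp (interquartile range 475 to 963). For 31 members (7.38%), the island reached within 1 kb of a transcript start although the accessible site did not. The other 30 members (7.14%) touched no island.

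The TpG and CpA ratio relates the observed TpG and CpA to those the base content would give, and it rises as CpG decays. It was not a term of the rule, but it is not independent of it. CpG, TpG and CpA draw on the same C and G, so choosing sites with many CpG also lowers this ratio. The size of that effect was not tested. Its median was 1.11 (95% interval 1.09 to 1.12) in members, between 1.03 (1.02 to 1.03) in CpG-rich promoter sites and 1.27 in other distal sites. Among the members, the value depended on the position in genes. Members in coding exons had 1.19 (1.16 to 1.20, n = 158), against 1.06 (1.03 to 1.09, n = 81) in introns, 1.05 (1.02 to 1.12, n = 26) in other exon parts and 1.08 (1.05 to 1.10, n = 155) outside genes. Coding sequence also restricts dinucleotides through the codons, and the share of this in the difference was not tested. CpG-rich promoter sites in coding exons had a median of 1.07.

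The distance to the nearest start was bounded below by the rule. The members lay a median of 4291 bp away (95% interval 3578 to 4901) and the other distal sites 14399 bp. Between 1 and 2 kb lay 106 members (25.2%), between 2 and 5 kb 128 (30.5%), between 5 and 10 kb 69 (16.4%), between 10 and 50 kb 111 (26.4%), and beyond 50 kb 6 (1.43%). In the same order, the other distal sites were distributed as 6.21%, 14.5%, 18.3%, 44.5% and 16.5%. The nearest start belonged to a protein-coding gene for 297 members, to a long intergenic noncoding RNA for 32 and to a processed pseudogene for 27. Measured along the direction of transcription from the nearest coding start, 276 members (65.7%, 61.1 to 70.1) lay downstream of it, as did 54.9% of other distal sites.

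The member at chr1:14506428-14507085 was the most remote, 196193 bp upstream of Eya1. It was 658 bp wide, 66.3% GC, outside genes and 4125 bp from the next accessible site. Among the other 4 of the 5 most remote members, the site in the last exon of the cadherin gene Cdh20 lay 81694 bp from a start, the site on the side of the talin gene Tln2 65600 bp, and the site on the side of the Wnt antagonist gene Nkd1 62806 bp. The site on the Dtna side of chromosome 18 lay 93344 bp away. RefSeq placed a transcript start inside the Tln2 and Dtna sites.

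Annotation decides which of these sites count as distal. Of the 420 members, 82 (19.5%, 16.02 to 23.6) had a RefSeq transcript start within 1 kb, although GENCODE release M21 had none there, and 17 (4.05%) had a curated RefSeq start within 1 kb. Among other distal sites these shares were 2.89% and 0.223%. When RefSeq starts were counted as well, 338 members were left.

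Coding exons held a far larger part of the members than of ordinary distal sites. By the centre of the site, 158 of 420 members (37.6%, 33.1 to 42.3) lay in a coding exon, against 1143 of 123919 other distal sites (0.922%) and 977 of 4677 CpG-rich promoter sites (20.9%). Introns held 81 members (19.3%, 15.8 to 23.3) and 49.7% of the other distal sites. Outside genes lay 155 members (36.9%, 32.4 to 41.6) and 46.5% of the other distal sites. The remaining 26 members (6.19%) lay in exon parts that do not code for protein. Of the CpG islands away from starts, with or without an accessible site, 1304 of 2982 (43.7%, 42.0 to 45.5) were centred in coding exons. The members' share lay below this interval, although the intervals overlapped between 42.0 and 42.3. Of the 1165 islands away from starts that had an accessible site, 281 were centred in coding exons, a smaller part than in the members.

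**Figure D3:**
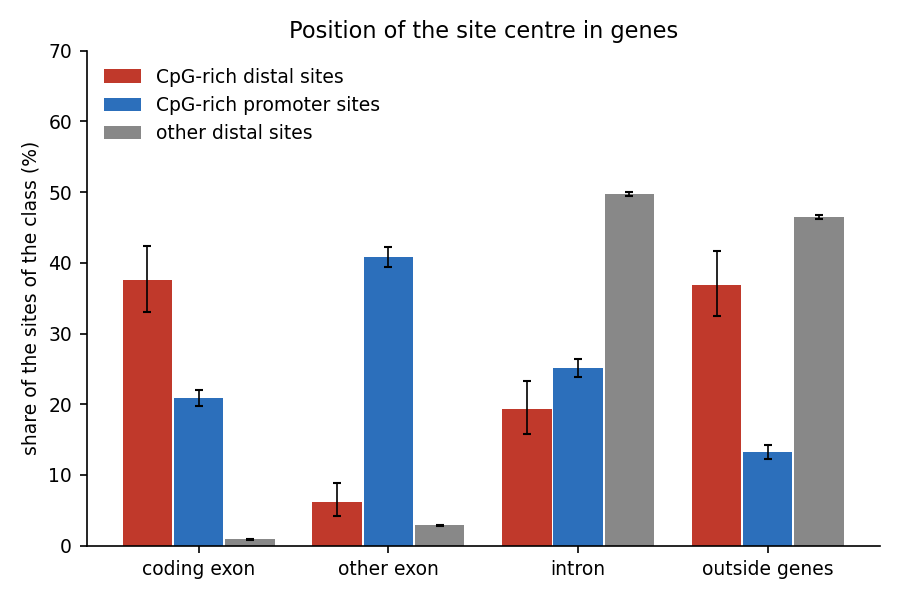
Share of sites (y axis, %) whose centre lay in a coding exon, another exon part, an intron or outside genes, for 420 CpG-rich distal sites, 4677 CpG-rich promoter sites and 123919 other distal sites. Error bars are 95% Wilson intervals; the members stand at 37.6% in coding exons, where other distal sites stand at 0.922%.

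Within coding exons the members were mostly in the last exon. Of the 158, 95 (60.1%, 52.3 to 67.4) lay in the last exon of every coding transcript that held the centre, 51 (32.3%) in an internal exon, 7 in the only exon and 2 in the first, and for 3 the transcripts differed. Of the 1143 other distal sites in coding exons, 271 (23.7%) lay in the last exon and 794 (69.5%) in an internal one. A median of 78.9% of the width of the coding-exon members was coding sequence.

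The members with most CpG per 100 bp were also mostly in coding exons. The densest was the 286 bp site in exon 19 of 47 of Cacna1a (chr8:84559145-84559430), with 17.1 CpG per 100 bp. A 255 bp site in exon 3 of Neurl1b, a ubiquitin ligase gene of the Notch pathway, had 16.5 (chr17:26438892-26439146). The Unc45b intron site followed with 15.3, the Evx1 site in the last exon, whose GC content of 77.6% was the highest among the members, with 14.8, and a site in the last exon of Nrtn, a gene of the GDNF family of growth factors, with 13.9.

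By CpG ratio, the Unc45b site stood first at 1.33 (chr11:82930672-82931463). Of the 12-base words read at each position of this site, 64.9% were further copies of a word already counted in it. Its TpG and CpA ratio of 0.383 was the lowest among the members. In 3 of 420 members (0.714%, 0.243 to 2.08) more than 10% of the words were such further copies. This held for 0.833% of other distal sites, 0.150% of CpG-rich promoter sites and 0.766% of all sites. The other 2 of these members were adjacent sites in exon 2 of Tchh, the gene of the hair follicle protein trichohyalin, with 12.98% and 36.2%. The next ratios were 1.22 at Cacna1a, 1.16 in the last exon of Otud7a, a deubiquitinase gene, 1.15 in the single exon of Slc18a3, the gene of the vesicular acetylcholine transporter inside the Chat locus, and 1.14 outside genes on chromosome 9.

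The share of islands away from starts that had an accessible site differed by location. Of the 2982 computed islands over 1 kb from any start, 1165 (39.1%, 37.3 to 40.8) overlapped a site, against 11858 of 13376 islands at starts (88.7%). Outside genes the share was 60.04% (553 of 921, 56.8 to 63.2), in other exon parts 46.9% (67 of 143), in introns 43.0% (264 of 614, 39.1 to 46.9) and in coding exons 21.5% (281 of 1304, 19.4 to 23.9). At starts, islands in coding exons had a site in 82.7% of cases. Of the 1165 islands with a site, 353 (30.3%) were touched by a member.

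Longer islands had a site more often up to 1000 bp. Over all locations the share was 59.1% from 500 to under 1000 bp and 56.9% at 1000 bp or more. An overlap of 1 bp was enough, and the part of island length alone in these shares was not tested. In coding exons the share was 11.4% from 200 to under 300 bp, 16.8% from there to under 500 bp, 44.0% from there to under 1000 bp and 46.7% at 1000 bp or more. Outside genes it was 48.9%, 62.5%, 75.1% and 72.0%. The intervals of the longest class were wide, with 75 islands in coding exons and 25 outside genes, and in both series they overlapped those of the class below. In the 3 shorter length classes the interval for coding exons lay below that for outside genes. Islands with a site had a median length of 396 bp (375 to 413) against 296 bp (287 to 304) without. Their TpG and CpA ratio was 1.09 (1.08 to 1.10) against 1.19 (1.18 to 1.20). These medians were not split by location, and coding exons held 281 of the 1165 islands with a site and 1023 of the 1817 without. The part of location in both differences was not tested. In coding exons, 58.4% of the islands with a site were in the last exon, and 38.9% of those without.

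**Figure D4:**
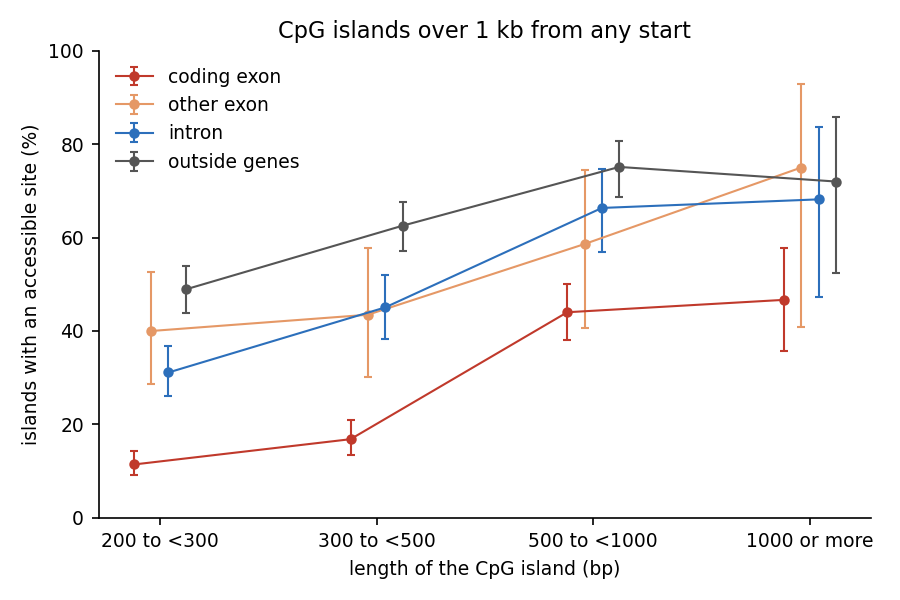
Share of CpG islands over 1 kb from any start that overlapped an accessible site (y axis, %), by island length (x axis, bp) and by the position of the island centre. Points are shares and bars 95% Wilson intervals; coding-exon islands stand at 11.4% in the shortest class, and islands outside genes at 48.9%.

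The members lay closer to other accessible sites than ordinary distal sites did. The median gap to the next site was 1833 bp (95% interval 1600 to 2147), against 3757 bp for other distal and 3812 bp for CpG-rich promoter sites. Another site lay within 1 kb of 147 members (35.0%) and of 19.04% of other distal sites. For 137 members (32.6%) the nearest site was a promoter site, against 12.3% of other distal and 34.8% of CpG-rich promoter sites. A promoter site lay within 1 kb of 42 members (10.0%), against 1.30% of other distal sites.

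Members occurred on each of the 19 chromosomes, from 5 on chromosome 16 to 56 on chromosome 11. Relative to distal sites, there were between 1.01 and 7.88 members per 1000, again on chromosomes 16 and 11. Chromosome 11 held 13.3% of the members, 5.72% of the distal sites and 9.52% of the islands away from starts. Of the islands away from starts on chromosome 11, 49.6% had a site, within the range of 26.2% to 53.9% over the chromosomes.

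By the nearest coding start, the 420 members fell to 374 genes, of which 336 had 1 member, 30 had 2 and 8 had 3. Counting protein-coding gene bodies, Foxc1, Shank1 and Skor1 had 3 members each. Foxc1 encodes a forkhead factor of mesenchyme, has a single exon, and held 1 member in its coding part (chr13:31808173-31808703) and 2 in the part behind it. Shank1 encodes a scaffold protein of the synapse, and its members lay in exons 24 and 25 of 25. Of these, the sites at chr7:44352885-44353157 and chr7:44353171-44353348 are neighbours in exon 24. Skor1, a corepressor gene of the SKI family, held members in exon 2, in an intron and in exon 9 of 9.

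Many of the nearest genes belonged to developmental transcription factor families. These families (homeobox, T-box, Sox, Fox, Pax, Gata and related symbols, 223 genes) were nearest to 64 members (15.2%, 12.1 to 18.99), at 49 genes. The share was 2.34% of other distal sites, 4.04% (3.51 to 4.64) of CpG-rich promoter sites and 8.75% (7.79 to 9.82) of islands away from starts. Among sites within 10 kb of a coding start, 47 of 245 members (19.2%, 14.7 to 24.6) and 390 of 23197 other distal sites (1.68%) were nearest to such a gene. Of the 64, 28 lay outside genes, 17 in coding exons, 15 in introns and 4 in other exon parts.

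The widest of them was a 2227 bp site outside genes, 6583 bp from the start of Ebf3, an early B cell factor family gene (chr7:137321028-137323254). A second member of 1798 bp lay in an intron of Ebf3 (chr7:137309108-137310905). Pax3, a paired box gene of neural crest and muscle progenitors, had a member of 2142 bp that began 18485 bp upstream of its start (chr1:78215619-78217760). Sox4 had one of 2076 bp, 4192 bp upstream (chr13:28957905-28959980), and the homeobox gene Nkx1-1 one of 1915 bp in its last exon (chr5:33430429-33432343). By RefSeq, the wider Ebf3 site held a transcript start, and the Sox4 and Pax3 sites lay 59 and 510 bp from one. Genes with 3 members by nearest start included Barx1, Tlx1 and Foxc1, which were picked here after their counts were seen.

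Among islands away from starts, those nearest to these genes had a site in 123 of 261 cases (47.1%, 41.2 to 53.2), and the others in 1042 of 2721 (38.3%, 36.5 to 40.1). Outside genes the shares were 57.6% of 118 and 60.4% of 803, and in introns 43.5% of 69 and 42.9% of 545. In coding exons they were 38.9% of 54 (27.04 to 52.2) and 20.8% of 1250 (18.6 to 23.1). In other exon parts 4 of 20 (8.07 to 41.6%) and 63 of 123 (42.5 to 59.9%) had a site. The intervals overlapped outside genes and in introns, and not in coding exons, where islands at these genes had a site more often, or in other exon parts, where they had one less often.

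The Hox clusters, which pattern the body axis, had 5 members of 39 genes searched (1.19%, 0.510 to 2.76), against 0.0525% of other distal sites. The shares were 0.599% (0.415 to 0.864) of CpG-rich promoter sites and 0.738% (0.488 to 1.11) of the islands away from starts, and both intervals overlapped that of the members. These 5 lay nearest to Hoxc4, Hoxc9, Hoxd10, Hoxb3 and Hoxb6 and were 234 to 1284 bp wide. Those at Hoxc9 and Hoxb3 were in coding exons. Signalling ligands and receptors of development (134 genes) were nearest to 13 members (3.10%, 1.82 to 5.22), against 1.405% of other distal sites. The intervals for CpG-rich promoter sites (1.77%, 1.43 to 2.19) and for islands away from starts (2.01%, 1.57 to 2.58) overlapped that of the members. The widest were an intronic site of 1567 bp in Wnt3 that held a RefSeq start, a site of 1237 bp outside genes on the Wnt7b side, one of 1084 bp on the Efna2 side, one of 992 bp in the last exon of Wnt10a and one of 988 bp in an intron of Wnt3a.

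Genes of KMT2, Polycomb and DNA methylation proteins (41 genes) were nearest to 7 members (1.67%, 0.810 to 3.40), against 0.228% of other distal sites. CpG-rich promoter sites stood at 0.620% (0.432 to 0.889) and islands away from starts at 1.11% (0.789 to 1.55), with intervals that overlapped that of the members. All 7 lay outside genes. They were at Bmi1 and Cbx8, which encode subunits of the first Polycomb repressive complex, at Ezh2, the methyltransferase of the second, and at Kdm5b, an H3K4 demethylase. The Bmi1 member was 1769 bp wide (chr2:18688927-18690695), and the nearest GENCODE start of any transcript was that of Spag6, 3337 bp away, while a RefSeq start lay 36 bp away. Ezh2 had 2 members, the wider of 1249 bp, 55216 and 77566 bp from its start. The wider one held a RefSeq start. Kdm5b had 1 of 1069 bp, 2806 bp from its start. Cbx8 had 3, of 925, 648 and 388 bp, between 5561 and 17303 bp from its start.

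Imprinted genes (32 searched) were nearest to 4 members (0.952%, 0.371 to 2.42), against 0.261% of other distal sites. This interval overlapped those of CpG-rich promoter sites (0.385%, 0.244 to 0.608) and of islands away from starts (0.436%, 0.255 to 0.744). The 4 were 1 of 859 bp in the single coding exon of Ndn, where RefSeq places a start, 2 of 515 and 458 bp on the side of Cdkn1c, a cyclin-dependent kinase inhibitor gene, and 1 of 361 bp that lay 29976 bp upstream of Rasgrf1. Clustered protocadherins (56 genes) had 0 members, which allows a share of up to 0.906% by the Wilson interval, and 0 of the 27 islands in their coding exons had a site. Fibroblast and mesenchymal genes (30 genes), whose products mark the labelled cell type, also had 0 of 420 members, while they were nearest to 569 other distal sites (0.459%) and 6 CpG-rich promoter sites (0.128%). At that share of the other distal sites, the interval of the members does not separate the classes.

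**Figure D5:**
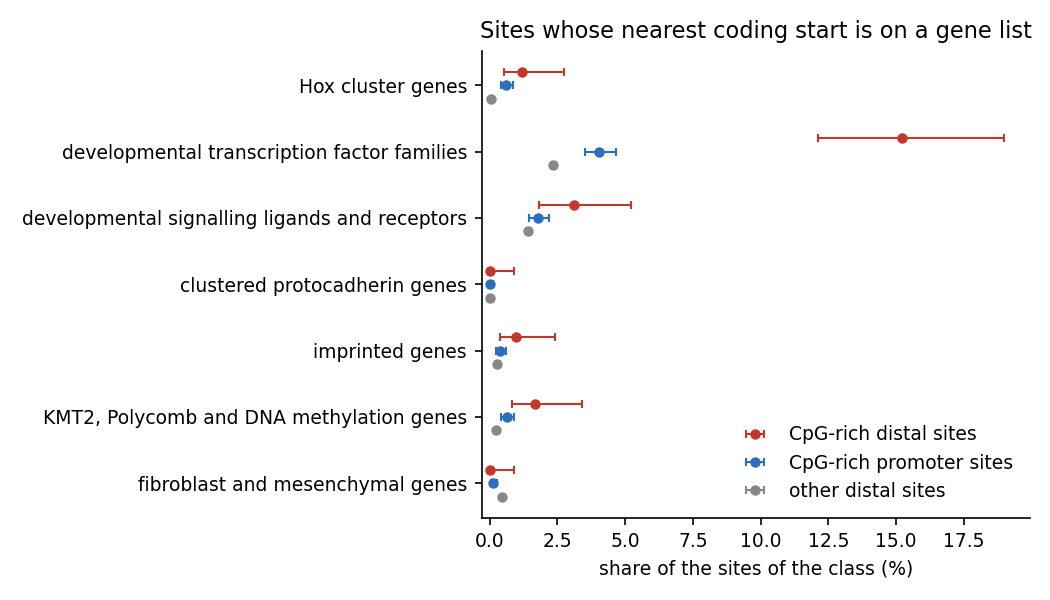
Share of the sites of each class (x axis, %) whose nearest coding start belongs to each of 7 gene lists (y axis), for CpG-rich distal sites, CpG-rich promoter sites and other distal sites. Points are shares and bars 95% Wilson intervals; the developmental transcription factor families stand at 15.2% of members, 4.04% of CpG-rich promoter sites and 2.34% of other distal sites.

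Of 12 consensus motifs searched on either strand in the middle 200 bp, those without CpG that are common at ordinary distal sites were less frequent in members. The AP-1 motif TGACTCA or TGAGTCA, bound by Fos and Jun proteins, was present in 8 of 420 members (1.90%, 0.968 to 3.71), in 16.3% of other distal sites, in 0.812% of CpG-rich promoter sites and in 14.7% of all sites. Of the 8, 5 lay in introns and 3 outside genes. The TEAD motif GGAATG was found in 8.33% of members, 17.5% of other distal sites and 16.3% of all sites, and the NFY motif CCAAT in 7.38%, 24.4% and 23.5%. In CpG-rich promoter sites the shares were 4.17% (3.63 to 4.78) for TEAD, below the members' interval (6.05 to 11.4), and 11.7% (10.8 to 12.6) for NFY, above theirs (5.25 to 10.3). Searched over the whole site, all 3 motifs were less frequent in members than in CpG-rich promoter sites, with 7.62% against 11.8% for AP-1, 29.5% against 39.7% for TEAD and 41.4% against 68.5% for NFY. The part of base composition and site width in these differences was not tested.

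The CTCF consensus, bound by the architectural zinc finger protein CTCF, was found in 2 of 420 members (0.476%, 0.131 to 1.72), in 3.05% of other distal sites, in 0.214% of CpG-rich promoter sites and in 2.83% of all sites. Searched over the whole site, it was found in 13 members (3.10%, 1.82 to 5.22), in 4.59% of other distal sites and in 1.75% of CpG-rich promoter sites, and the members' interval then held the value of the other distal sites. Both matches in the middle 200 bp lay outside genes, on the sides of Igip and Pax2. The match on the Pax2 side was in a member of 184 bp, 71549 bp from the start of Pax2, and is shown in capitals with its surroundings (chr19:44684315-44684366).

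Pax2 side, CTCF match: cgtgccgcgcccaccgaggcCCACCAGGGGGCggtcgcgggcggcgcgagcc

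The SP and KLF, EGR and E-box motifs, which contain CpG, were more frequent in members than in other distal sites, and the rule chose the members by their CpG and GC content. The SP and KLF motif GGGCGG was present in 204 members (48.6%, 43.8 to 53.3), 61.6% of CpG-rich promoter sites, 3.23% of other distal sites and 7.74% of all sites. Searched over the whole site, it was in 79.3% of members, 95.4% of CpG-rich promoter sites and 8.47% of other distal sites. The EGR motif GCGGGGGCG or GCGTGGGCG was present in 30 members (7.14%, 5.05 to 10.0), 6.24% of CpG-rich promoter sites, 0.0896% of other distal sites and 0.460% of all sites. It can overlap the SP and KLF motif, since both may use the same GGGCG letters. The E-box CACGTG was found in 30 members (7.14%, 5.05 to 10.0), in 2.53% of other distal sites, in 4.23% (3.69 to 4.85) of CpG-rich promoter sites and in 2.78% of all sites. Over the whole site, its share was 22.6% (18.9 to 26.9) in members and 27.6% in CpG-rich promoter sites, which were wider.

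Of the searched motifs typical of active CpG island promoters, ETS, CRE, NRF1 and YY1 were infrequent in the middle 200 bp of members. They were also infrequent there in other distal sites and in CpG-rich promoter sites. The SP and KLF motif was common in members, as given above. ETS (CCGGAAGT) was found in 1 member (0.238%, 0.0420 to 1.34), in 1.86% of CpG-rich promoter sites and in 0.465% of all sites. CRE (TGACGTCA) was found in 0 members, which allows up to 0.906%, in 0.791% of CpG-rich promoter sites and in 0.311% of all sites. NRF1 was found in 2 members (0.476%, 0.131 to 1.72), in 0.812% of CpG-rich promoter sites and in 0.107% of all sites, and YY1 (AAGATGGCG) in 2 members (0.476%), 1.22% and 0.245%. In the middle 200 bp, only the interval for ETS among these 4 lay below that of the CpG-rich promoter sites. Other distal sites had ETS in 0.179%, CRE in 0.218%, NRF1 in 0.0186% and YY1 in 0.122%. Only for NRF1 did the members' interval lie above that of the other distal sites (0.0124 to 0.0279). Over the whole site, the intervals of all 4 lay below those of the CpG-rich promoter sites. ETS was in 1.43% (0.656 to 3.08) against 7.12%, and YY1 in 1.19% (0.510 to 2.76) against 5.43%. CRE and NRF1 were each in 0.952% (0.371 to 2.42), against 4.53% and 4.13%. Other distal sites had ETS in 0.567%, YY1 in 0.294%, CRE in 0.562% and NRF1 in 0.0807%. Their intervals lay below the members' except for CRE. Median widths were 753.5 bp in members, 1483 bp in CpG-rich promoter sites and 566 bp in other distal sites. The part of width in these differences was not tested. Part of the REST site, TTCAGCACC, was found in 1 member (0.238%) and in 0.400% of all sites.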

How the data were processed

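ATAC-seq was performed by the authors on 10 libraries, which fell into 5 labelled groups of 2 replicates. Per the methods and the processing notes of the submitters, the authors used Trim Galore for trimming and BWA for alignment to mm10 (GRCm38.p6), filtered reads with SAMtools following ENCODE recommendations, merged replicates with Picard, called narrow peaks with MACS2 and normalized with DESeq2. Versions, the peak threshold, any shift for the Tn5 cut and how the sites of single samples became 1 list are not given in the sources used here. Each could change the number, the edges and hence the base composition of sites.

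The deposited file used here holds positions and no other values, that is the chromosome, start and end of each site pooled over all samples. The depth is therefore unknown, and no value per library, replicate error or test between treatments was available to these results. Starts were taken as zero-based, since sites never overlapped, and coordinates are given in the 1-based form; 0 sites ended beyond their chromosome in GRCm38.

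Base composition was read from RefSeq's soft-masked GRCm38.p6 sequence. Starts, exons and genes came from the comprehensive GENCODE M21 annotation (125891 different starts on chromosomes 1 to 19), not the release the study names, and RefSeq starts served as an alternative. Sites were located by their centre. CpG islands were scored segments (17 for each CpG, less a penalty for each other base) of at least 200 bp outside soft-masked repeats, with GC content over 0.5 and CpG ratio over 0.6; the island list of the study was not used here. Shares carry 95% Wilson intervals and medians 95% intervals from order statistics.

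Named sites were the 5 widest, the 5 with most CpG per 100 bp, the 5 farthest from a start, the 5 with the highest ratio, the member at the median GC content, those next to each threshold and up to 5 per gene list; named genes were those with most members in their body, of which the tied genes in the next place are not reported here. The members, gene lists, motifs and alternatives were chosen with earlier results of these data known. Gene lists were matched by symbol patterns, which also take in a few genes of other function. Python 3.11.15, NumPy 2.4.6, pandas 2.3.3, SciPy 1.17.1, Numba 0.67.0 and Matplotlib 3.10.9 were used, and the scripts were tested on simulated data. The RefSeq alternative and a restriction on islands were added after seeing the data.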

Additional observations from a re-analysis of the deposited data

Results flagged for a closer look

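The rule was limited to chromosomes 1 to 19. On chromosome X, 14 of 2897 distal sites (0.483%, 95% Wilson interval 0.288 to 0.810) passed the same thresholds, in sites that none of the comparisons used. They were flagged because 14 exceeded a fixed limit of 3 counts, which does not compare the chromosomes. On chromosomes 1 to 19 the share was 0.338%, which lies within the interval of chromosome X.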

How the results depend on the processing

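The list gives no depth, so weak sites could not be told from strong ones, and the 420 members rest on cut-offs in a continuous distribution. Of 112 values recomputed under alternatives, 73 stayed within 1.5 times the count or within the interval of the value reported, and 39 moved. No paired analysis was possible because only positions pooled over libraries were analysed, and no replicate could be left out either. The cause of each move was not tested except where an alternative removes or adds sites by construction.

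With a start window of 3 kb, 260 members were left, with a median width of 825.5 bp, a median distance of 8781 bp, 35.0% in exons and 47.7% outside genes. With a window of 500 bp the median distance was 2888 bp and 30.8% lay outside genes. With GC content of 0.65 and ratio of 0.75, 99 members were left, with a width of 583 bp, 56.6% in exons, 26.3% outside genes, 97.0% on an island and 2.02% with a CTCF match. With 0.55 and 0.65, 37.4% lay in exons. With the sequence rule on the middle 200 bp there were 803 members, with a width of 917 bp, a distance of 5278 bp, 31.6% in exons, 45.5% outside genes, 79.1% on an island, 2.49% with a CTCF match and 10.3% nearest to developmental transcription factor genes. Keeping only sites of the median width or more gave 252 members, a width of 1068.5 bp and 99.6% on an island. Sites with no soft-masked base gave 125 members, a width of 412 bp, a distance of 3544 bp, 55.2% in exons, 14.4% in introns, 30.4% outside genes, 89.6% on an island and 0.800% with an AP-1 match. Starts of protein-coding transcripts alone gave 653 members, a distance of 7304 bp, 49.2% in exons and 29.4% outside genes. RefSeq starts as well gave a distance of 3560.5 bp. Islands of at least 500 bp with GC content of 0.55 and ratio of 0.65 had a site in 59.9% of cases away from starts.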
